A study of Arabidopsis thaliana with 12 samples.

Results

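The genotype by YC4-R4 interaction asks, gene by gene, whether the change in RNA level between plants with and without YC4-R4 differed between the rdd mutant and Col-0. It was taken as the log2 change with YC4-R4 in rdd libraries minus the same change in Col-0 libraries, so it draws on all 12 of the 12 libraries of the series. A gene was called when the Benjamini-Hochberg adjusted p of edgeR's quasi-likelihood test was under 0.05, and 6319 of the 20651 tested genes were called (30.6%). Called genes were then sorted by which of the 4 group means stood away from the others. A positive interaction means that the change with YC4-R4 was more upward in rdd than in Col-0.

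The material was RNA from whole Arabidopsis thaliana plants, 2 weeks old and grown in soil. Col-0 is the wild type reference accession, and the labels describe rdd as a triple mutant in the Col-0 background. By its usual meaning rdd lacks the DNA glycosylases ROS1, DML2 and DML3, which excise methylated cytosine, while the related glycosylase gene DME is not part of the triple mutant. The 4 groups of 3 libraries are Col-0 in regular soil (Col-0 control), Col-0 in soil with YC4-R4 (Col-0 YC4-R4), rdd in regular soil (rdd control) and rdd in soil with YC4-R4 (rdd YC4-R4). The title of the series speaks of beneficial rhizobacteria and of myo-inositol. Neither allele names, nor the amount of YC4-R4, nor the number of plants behind a library is given in the sources used here, so p-values measure the spread between these libraries.

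RNA of DML2 and DML3, which are named in rdd, followed the YC4-R4 label and not the genotype label. This bears on the driving groups and on both YC4-R4 effects. Levels are given in CPM, read counts scaled to the effective size of each library. Under the label Col-0 control, DML3 had 4.5, 5.89 and 4.53 CPM, and under rdd control 3.41, 3.67 and 3.47 CPM. With YC4-R4 it had 1.07, 0.937 and 0.316 CPM under Col-0 and 0.953, 0.267 and 0.577 CPM under rdd. The low values lay with the YC4-R4 label in both genotypes, and the interaction of DML3 was 0.06 ± 0.48 (standard error; edgeR adjusted p = 0.94). DML2 ran from 18.6 to 22.8 CPM over both control groups and from 11.5 to 14.2 CPM over both YC4-R4 groups, with an interaction of 0.01 ± 0.12 (edgeR adjusted p = 0.95). The interaction adds the means of Col-0 control and rdd YC4-R4 and subtracts the means of Col-0 YC4-R4 and rdd control. By this arithmetic its estimate, error and p stay the same if the names of Col-0 YC4-R4 and rdd control are exchanged, whereas the driving group and both YC4-R4 effects change with the names. Groups are called by their labels throughout.

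Library totals ran from 14465710 to 20281801 counts. The biological coefficient of variation was 2.57% to 3.22% in 3 groups and 5.84% in rdd YC4-R4. Ribosomal RNA took 0.147% to 0.192% of counts in Col-0 control, 0.0638% to 0.0752% in Col-0 YC4-R4 and rdd control, and 0.0649% to 0.158% in rdd YC4-R4. Root marker genes (19 tested) summed to 1340 to 1360 CPM in Col-0 control, 1240 to 1250 in Col-0 YC4-R4, 1170 to 1230 in rdd control and 1180 to 1190 in rdd YC4-R4. The 2 tested floral markers summed to 1.33 to 2.91 CPM over all libraries. The part of these values in the results was not tested. In whole plants, fewer cells of a type and less RNA per cell cannot be told apart.

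Several hormone and stress systems carried the largest interactions, and some background helps in reading them. Jasmonoyl-isoleucine, the active jasmonate, is made in a short pathway from lipoxygenases (LOX) through allene oxide cyclases (AOC) to the reductase OPR3. It triggers degradation of the JAZ repressors, which releases MYC transcription factors, and it is inactivated by CYP94 oxidases and amidohydrolases, so repressor and inactivation genes are themselves induced by the hormone. CBF factors turn on cold-regulated (COR) genes, while ERF, ZAT and WRKY factors respond within minutes to hours to wounding, touch, chill and pathogens. The rapid stress response element (RSRE) is a short promoter motif bound by CAMTA factors.

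Of the 6319 called genes, 3339 had a positive interaction (16.2% of tested genes) and 2980 a negative one (14.4%). With no scaling beyond library totals the split was 2413 positive and 4013 negative, and positive calls made up 37.6% in place of 52.8%. Upper-quartile scaling also turned the split, to 2964 positive and 3328 negative (47.1% positive), and RLE scaling gave 52.1% positive. The median of all tested genes moved by -0.0726 with no scaling and by -0.027 with upper-quartile scaling. The median absolute interaction was 0.46 among called genes and 0.21 among all tested genes. An absolute interaction of 1 or more, which is 2-fold, was reached by 936 called genes, 417 positive and 519 negative. At the threshold, Nek7 lay just inside with an interaction of -0.23 (edgeR adjusted p = 0.05), and XIF just outside with 0.48 (edgeR adjusted p = 0.0501).

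Called genes were sorted by the group mean, or the crosswise pair of means, that stood apart. A group was taken to drive a gene when its mean log2 CPM was the highest or lowest of the 4 and the gap to the next mean was wider than the range of the other 3. Col-0 control drove 1399 called genes (22.1%), rdd control 1416 (22.4%), rdd YC4-R4 653 (10.3%) and Col-0 YC4-R4 398 (6.3%). A further 1545 (24.5%) were diagonal, with both means of one crosswise pair above both means of the other, and 908 (14.4%) fitted neither description. These shares describe the same values that made the calls and were not tested. The same sorting put 36.2% of all tested genes in neither kind. The interaction was called for 61.1% and 62.3% of tested genes in the diagonal classes, for 51.8% of those high in Col-0 control, and for 19.9% to 44.3% of those in the other 7 single-group classes. In 727 called genes the gap was 0.8 to 1 times the range, and in 830 it was between 1 and 1.25 times, so many genes lay near the limit.

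The direction of the driving group depended in part on scaling. Col-0 control was high in 867 genes and low in 532, and rdd control was high in 608 and low in 808. Col-0 YC4-R4 was high in 184 and low in 214, and rdd YC4-R4 was high in 212 and low in 441. Without scaling beyond library totals, Col-0 control was high in 477 genes and low in 1341, and with upper-quartile scaling it was high in 689 and low in 769. Among the diagonal genes, 795 were high in Col-0 YC4-R4 and rdd control, and 750 were high in Col-0 control and rdd YC4-R4.

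**Figure D1:**
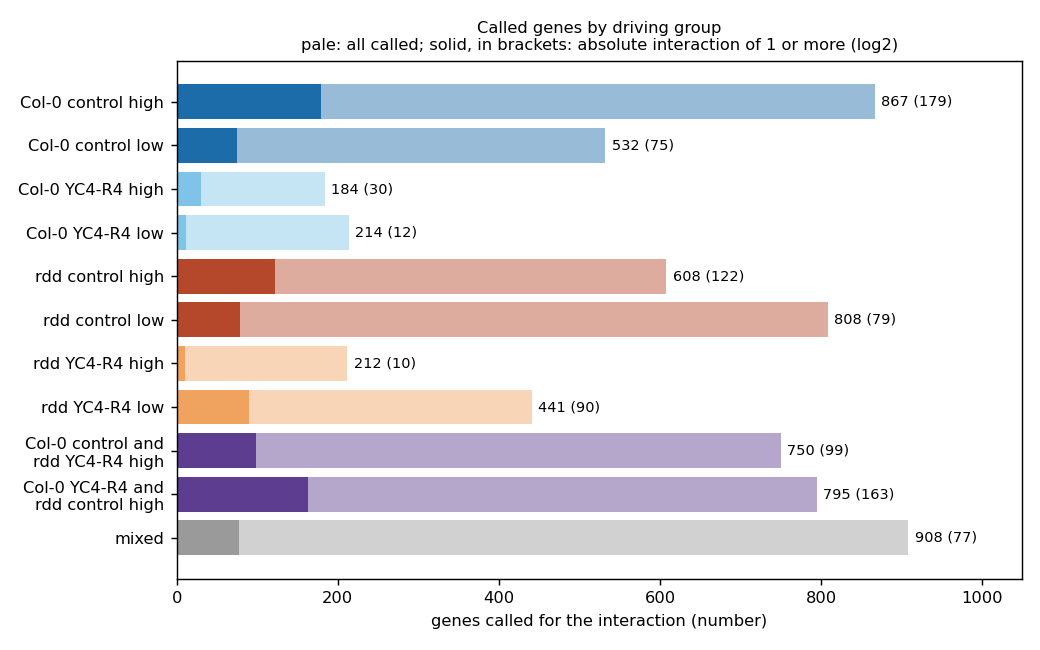
Number of called genes (horizontal axis) in each driving class (vertical axis), with all called genes as pale bars and those with an absolute log2 interaction of 1 or more as solid bars and in brackets. The Col-0 control high class holds 867 genes, of which 179 reach 1 (689 genes with upper-quartile scaling and 477 with none), and the rdd YC4-R4 high class has 212, of which 10 reach 1.

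The same genes can be described by the YC4-R4 effects that make up the interaction. Over all tested genes, the YC4-R4 effect was called for 29.8% under the Col-0 label and for 32.2% under the rdd label. Among called interaction genes, 1504 (23.8%) had both effects called in opposite directions, 714 of them upward in Col-0 and downward in rdd and 790 the reverse. Both effects were called in the same direction but unequal in size in 544 genes (8.61%). The effect was called in Col-0 alone for 1772 genes and in rdd alone for 2014, and in neither for 485. The interaction itself is the test of the difference in these genes, and since it shares all its libraries with both effects, these counts are a description.

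**Figure D2:**
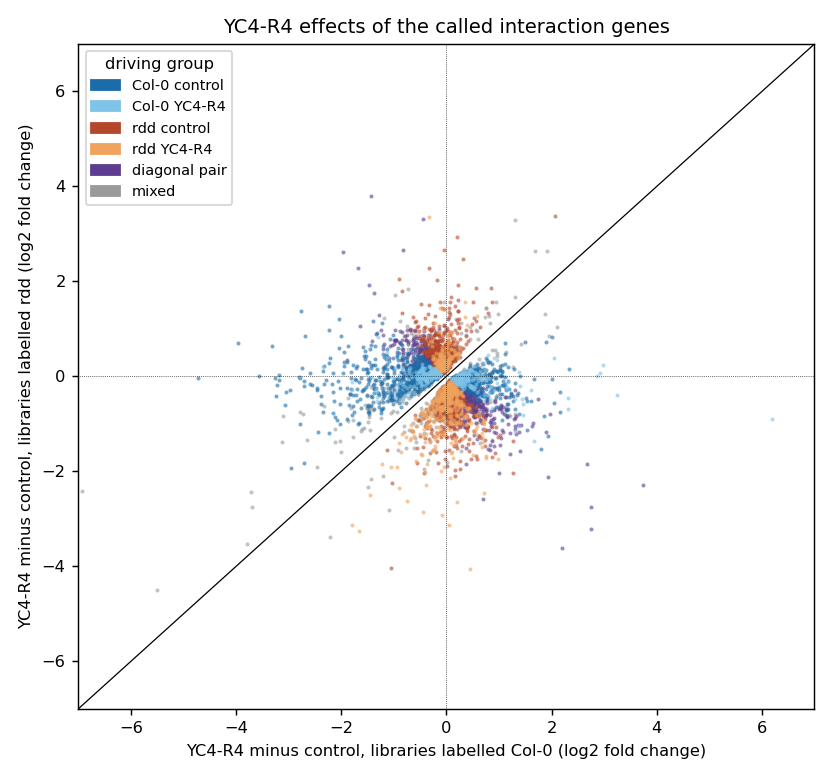
Log2 change with YC4-R4 under the Col-0 label (horizontal axis) and the rdd label (vertical axis) for the 6319 called interaction genes, each point a gene coloured by its driving group, with the solid line marking equal effects. Genes driven by a Col-0 group spread along the horizontal axis, and genes driven by an rdd group along the vertical axis. Diagonal genes lie in the quadrants where the effects have opposite signs. This layout follows from how the driving classes were defined.

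Called genes were ranked where the mean level was at least 1 on the log2 CPM scale and the driving libraries did not overlap the others. Among these genes the 3 largest interactions were diagonal, and CYP94C1, of the jasmonate inactivation list, was one of them. CYP94C1 (AT2G27690, chromosome 2, 11809279 to 11811280 in TAIR10.1), which oxidises jasmonoyl-isoleucine to a carboxyl form, stood at 9.15, 8.47 and 9.3 CPM in Col-0 control and at 39.9, 42.3 and 41.3 CPM in Col-0 YC4-R4. Under the rdd label it went the other way, from 53.2, 48.5 and 46.9 CPM in control to 3.45, 4.65 and 3.99 CPM with YC4-R4. No library of Col-0 YC4-R4 or rdd control overlapped one of the other 2 groups, but the ranking required this, so the separation was fixed by the choice. The same holds for the leaders of every class below, the genes ranked first in this way. Its change with YC4-R4 was 2.2 ± 0.08 in Col-0 and -3.61 ± 0.09 in rdd, which gives an interaction of -5.81 ± 0.12 (edgeR adjusted p = 2.7e-29).

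The other leaders of this diagonal class had lower counts and the same crosswise pattern. AT2G38240 (chromosome 2, 16012535 to 16014991), annotated as a 2-oxoglutarate and iron dependent oxygenase, ran from 0.168 to 0.465 CPM in Col-0 control and from 4.50 to 5.31 CPM in Col-0 YC4-R4. It ran from 4.3 to 6.35 CPM in rdd control and from 0.774 to 1.49 CPM in rdd YC4-R4. The interaction was -6.03 ± 0.37 (edgeR adjusted p = 1.9e-15). ABR1, an ERF-type transcription factor, stood at 1.55, 0.897 and 1.09 CPM in Col-0 control and 7.92, 9 and 7.14 CPM in Col-0 YC4-R4. It stood at 8.80, 9.49 and 9.2 CPM in rdd control and 0.714, 1.33 and 1.92 CPM in rdd YC4-R4, an interaction of -5.49 ± 0.28 (edgeR adjusted p = 5.2e-18). Its close relative RAP2.6, counted at 0.129 to 1.92 CPM as group means, had -5.97 ± 0.76.

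All 6 tested members of the jasmonate inactivation list were called, 0 with a positive and 6 with a negative interaction, against 30.6% of all tested genes. Of the 11 entries of this list, 7 matched the annotation. Over all tested genes 16.2% were called positive and 14.4% negative, and the list counts that follow stand beside these shares. Lists and members were chosen with earlier results of these data known, so all such list counts are a description and were not tested. The median interaction of the 6 jasmonate inactivation genes was -2.3. Of these, 5 were of the same diagonal class as CYP94C1, against 795 of all 6319 called genes. CYP94B1, a further oxidase, rose with YC4-R4 in Col-0 from 1.09, 1.91 and 1.69 to 9.60, 9.56 and 10.6 CPM. In rdd it fell from 3.89, 3.51 and 4.02 to 0.893, 1.33 and 0.914 CPM, and the interaction was -4.52 ± 0.27 (edgeR adjusted p = 9.4e-16). ST2A, a sulfotransferase acting on hydroxyjasmonate, had an interaction of -2.18 ± 0.19, and the amidohydrolase genes IAR3 and ILL6 had -1.15 ± 0.08 and -0.86 ± 0.09. CYP94B3 was the exception in class. It fell in both genotypes, from 21.9 ± 0.38 to 16.1 ± 0.78 CPM (mean ± SD, n = 3) in Col-0 and from 6.33 ± 0.45 to 0.888 ± 0.254 CPM in rdd, and rdd YC4-R4 drove its interaction of -2.41 ± 0.20.

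JAZ repressor genes had the same sign, with 9 of 12 tested members called, 0 positive and 9 negative, and a median of -1.22. Of these 9, 4 were of the diagonal class of CYP94C1 and 5 were lowest in rdd YC4-R4. These classes held 795 and 441 of all 6319 called genes. JAZ6 is a diagonal member, at 70.9, 65.6 and 70.6 CPM in Col-0 control, 132, 131 and 134 in Col-0 YC4-R4, 129, 119 and 125 in rdd control and 58.4, 53.3 and 50.9 in rdd YC4-R4. Its interaction was -2.14 ± 0.07 (edgeR adjusted p = 6.9e-24), and JAZ9 (-1.48 ± 0.06), JAZ10 (-2.25 ± 0.13) and JAZ2 (-1.16 ± 0.07) shared its class. JAZ7 and JAZ8 were instead set apart by rdd YC4-R4. JAZ7 stood at 12.6, 12.5 and 14.7 CPM in Col-0 control, 15.3, 15.3 and 15.0 in Col-0 YC4-R4, 9.76, 8.97 and 9.25 in rdd control and 1.25, 1.71 and 1.49 in rdd YC4-R4. The interaction of JAZ7 was -2.84 ± 0.18 (edgeR adjusted p = 2.6e-15). JAZ8 ran from 3.98 to 5.84 CPM in 9 libraries and from 0.536 to 0.748 CPM in rdd YC4-R4, with an interaction of -2.84 ± 0.28 (edgeR adjusted p = 2.6e-10).

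The promoter of JAZ7 is shown because it is the leading gene of its class that holds a G-box, the motif CACGTG bound by MYC and other basic helix-loop-helix factors. The window runs from 250 bases before to 50 after the annotated start on the plus strand, chr2:14572780-14573079 in TAIR10.1 (RefSeq), with the G-box in capitals 34 bases before the start.
JAZ7: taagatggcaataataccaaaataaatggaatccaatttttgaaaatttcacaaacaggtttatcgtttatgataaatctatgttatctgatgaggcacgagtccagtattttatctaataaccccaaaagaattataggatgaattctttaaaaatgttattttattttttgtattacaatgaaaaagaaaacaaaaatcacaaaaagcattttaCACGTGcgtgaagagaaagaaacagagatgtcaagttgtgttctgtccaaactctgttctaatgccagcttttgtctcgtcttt
A match describes the letters of the window and says nothing of binding. The JAZ8 window also held a G-box, and that of RAS1 held none. Over the class low in rdd YC4-R4, 11.8% of windows held a G-box, against 8.61% of all tested genes.

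Jasmonate synthesis genes had 11 of 16 tested members called, 1 positive and 10 negative, with a median of -0.28. LOX3, a lipoxygenase, stood at 74.0, 70.5 and 67.9 CPM in Col-0 control, 112, 113 and 114 in Col-0 YC4-R4, 57.0, 51.9 and 52.9 in rdd control and 23.2, 24.2 and 23.3 in rdd YC4-R4. It thus rose with YC4-R4 in Col-0 and fell in rdd, with an interaction of -1.86 ± 0.07 (edgeR adjusted p = 2.3e-21). OPR3 was driven by Col-0 YC4-R4, where it stood at 199, 205 and 196 CPM against 70.7 to 122 CPM in the other 9 libraries (interaction -1.54 ± 0.06). Col-0 YC4-R4 was the driving group, on the high side, of 5 of these 11 genes, against 184 of 6319 over all called genes. AOC1, at 72.4 ± 2.43 CPM there against group means of 27.9 to 38.9 CPM, is a near copy of AOC2, and counts of the pair are uncertain.

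In the list of the MYC branch, which holds the receptor COI1, the MYC and JAM regulators and their outputs, calls were mostly positive. Of 13 tested members 6 were called positive and 1 negative, with a median of 0.2. VSP2, a vegetative storage protein gene induced by jasmonate, rose in both genotypes, from 154 to 231 CPM as group means in Col-0 and from 116 to 225 CPM in rdd (interaction 0.37 ± 0.06). CORI3 stood at 32.0 to 37.6 CPM in rdd control and at 66.8 to 128 CPM in the other 9 libraries, an interaction of 0.70 ± 0.07 (edgeR adjusted p = 7.2e-10). CLH1, a chlorophyllase gene, had the same driving group and an interaction of 0.72 ± 0.09. On the jasmonate-ethylene branch, 1 of 4 tested members was positive (PR4, 0.63 ± 0.11) and 1 negative (ORA59, an ERF regulator, -1.35 ± 0.25). The median of these 4 was -0.3.

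At a mean log2 CPM of at least 1 and without overlap of libraries, RAS1 had the largest interaction among genes low in rdd YC4-R4. It is named for its response to abscisic acid and salt. RAS1 (AT1G09950, chromosome 1, 3240531 to 3241863) stood at 13.5, 10.1 and 14.4 CPM in Col-0 control and 12.5, 13.2 and 13.4 CPM in Col-0 YC4-R4. It stood at 4.3, 3.62 and 3.96 CPM in rdd control and 0.417, 0.748 and 0.192 CPM in rdd YC4-R4. The interaction was -3.17 ± 0.31 (edgeR adjusted p = 1.9e-10), while the change with YC4-R4 in Col-0 was 0.04 ± 0.12.

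Several touch and cell wall genes were low in rdd YC4-R4. TCH3, a calmodulin-like calcium sensor, stood at 196, 203 and 197 CPM there, against 561, 576 and 598 in Col-0 control, 433, 423 and 403 in Col-0 YC4-R4 and 633, 603 and 634 in rdd control (interaction -1.19 ± 0.05). TCH4, a xyloglucan endotransglucosylase induced by touch, fell with YC4-R4 in both genotypes, to 306 to 315 CPM in Col-0 and to 62.1 to 66.7 CPM in rdd, with an interaction of -0.86 ± 0.05 (edgeR adjusted p = 1.3e-15). In the touch, wound and calcium list 3 of 13 tested members were positive and 3 negative, with a median of -0.2. The positive members were TCH2 and CML23, both highest in Col-0 control, and CML41, which was lowest in rdd control. XTH18 stood at 18.9, 20.2 and 23.4 CPM in rdd YC4-R4 and at 45.3 to 60.5 CPM in the other 9 libraries, an interaction of -1.58 ± 0.09 (edgeR adjusted p = 5.0e-17). Its relative XTH23 had -1.53 ± 0.10 in the same class.

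Promoters of genes low in rdd YC4-R4 held the RSRE, CGCGTT on either strand, in a larger share than those of the other classes. A match was found in 66 of 440 windows of that class (15.0%), against 784 of 20504 windows of all tested genes (3.82%) and 3.45% of all 32834 windows. In the other driving classes the share ran from 0.939% in Col-0 YC4-R4 low to 6.09% in rdd control high. Among the 89 windows of this class with an absolute interaction of 1 or more, 14 held a match (15.7%). CAMTA3, which encodes a factor that binds this motif, was itself of this class, at group means of 116, 109, 118 and 84.7 CPM in the order Col-0 control, Col-0 YC4-R4, rdd control and rdd YC4-R4 (interaction -0.39 ± 0.06). Its relatives CAMTA1 (0.14 ± 0.07, edgeR adjusted p = 0.11) and CAMTA2 (0.10 ± 0.08, edgeR adjusted p = 0.37) were not called. These shares were not tested, and their relation to CAMTA3 was not tested either.

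Among the genes of that class with an RSRE match, a mean log2 CPM of at least 1 and no overlap with the other 9 libraries, the 4 largest interactions were chosen after the shares were seen, to show where the motif lies. AT1G15010, annotated as a mediator subunit, stood at 3.27, 3.95 and 3.27 CPM in rdd YC4-R4 and at 14.7 to 19.7 CPM in the other 9 libraries. AT4G32800, an ERF-type factor, stood at 8.99, 6.30 and 7.16 CPM against 15.6 to 28.3 CPM. YUC5, an auxin synthesis enzyme of the YUCCA family, stood at 1.37, 0.587 and 0.625 CPM against 1.99 to 3.55 CPM. PHI-1, annotated as a phosphate-responsive protein, stood at 7.56, 8.38 and 9.09 CPM against 48.8 to 127 CPM. Their interactions were -2.2 ± 0.15, -2.15 ± 0.14, -1.89 ± 0.34 and -1.88 ± 0.08 in that order. The windows are chr1:5170931-5171230 (plus strand), chr4:15819239-15819538 (plus), chr5:17650326-17650625 (minus) and chr1:12851733-12852032 (plus) in TAIR10.1. Capitals mark the RSRE, 60, 130, 6 and 100 bases before the start, and in PHI-1 also a W-box (TTGACT) 182 bases before it.
AT1G15010: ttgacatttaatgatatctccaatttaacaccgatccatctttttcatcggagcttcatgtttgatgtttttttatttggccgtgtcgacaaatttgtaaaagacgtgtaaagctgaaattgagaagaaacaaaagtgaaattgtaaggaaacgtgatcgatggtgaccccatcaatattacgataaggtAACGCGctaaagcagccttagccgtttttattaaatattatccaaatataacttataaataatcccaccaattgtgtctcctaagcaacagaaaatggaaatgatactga
AT4G32800: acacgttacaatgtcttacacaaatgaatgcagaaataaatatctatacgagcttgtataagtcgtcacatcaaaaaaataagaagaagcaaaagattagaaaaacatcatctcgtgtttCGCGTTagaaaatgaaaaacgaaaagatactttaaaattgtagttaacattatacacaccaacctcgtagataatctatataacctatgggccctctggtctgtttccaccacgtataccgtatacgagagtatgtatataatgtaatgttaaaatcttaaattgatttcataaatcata
YUC5: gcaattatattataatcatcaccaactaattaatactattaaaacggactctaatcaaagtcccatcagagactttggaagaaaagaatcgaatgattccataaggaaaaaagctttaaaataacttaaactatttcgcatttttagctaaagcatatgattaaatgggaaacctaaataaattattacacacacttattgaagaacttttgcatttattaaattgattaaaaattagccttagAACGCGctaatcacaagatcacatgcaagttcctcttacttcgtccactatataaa
PHI-1: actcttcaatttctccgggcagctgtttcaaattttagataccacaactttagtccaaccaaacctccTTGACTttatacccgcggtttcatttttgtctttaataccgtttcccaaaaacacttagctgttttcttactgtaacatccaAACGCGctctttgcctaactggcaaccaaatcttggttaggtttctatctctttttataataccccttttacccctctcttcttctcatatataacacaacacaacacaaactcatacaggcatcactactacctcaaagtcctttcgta
Read against the start, 3 of the 4 matches are the reverse complement AACGCG and that of AT4G32800 is in the forward orientation.

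**Figure D3:**
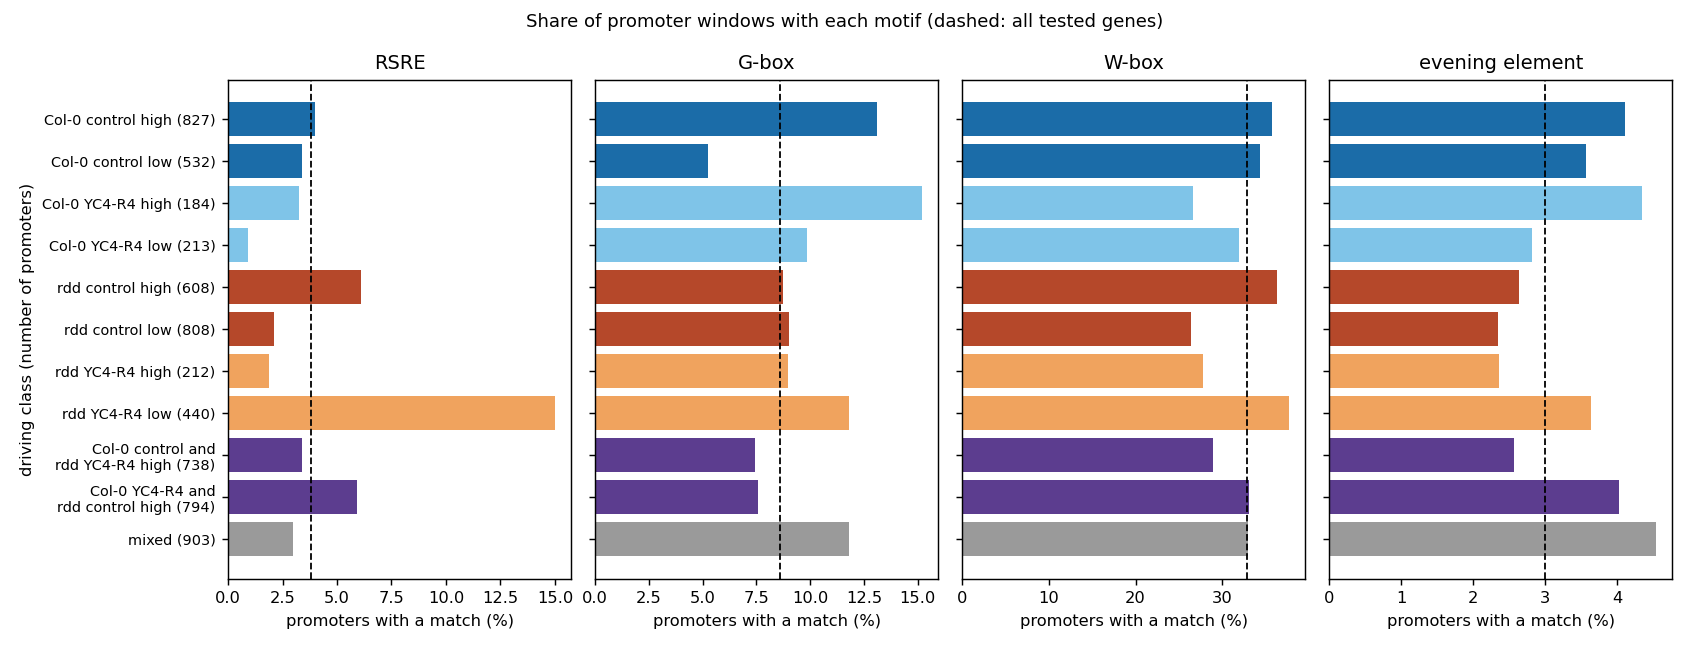
Share of promoter windows (horizontal axes, percent) with a match to each of 4 motifs, by driving class (vertical axis, with the number of windows in brackets), the dashed line marking all tested genes. The RSRE bar of the rdd YC4-R4 low class stands at 15.0% against 3.82% for all tested genes, and the G-box bars are highest in Col-0 YC4-R4 high (15.2%) and Col-0 control high (13.1%) against 8.61%.

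Other motifs varied less in proportion between classes. The W-box, TTGACC or TTGACT on either strand and a target of WRKY factors, was in 26.4% to 37.7% of windows of the 10 named driving classes, against 32.8% of all tested genes. The evening element AAAATATCT, a clock motif, was in 2.35% to 4.35%, against 2.99%. The G-box was in 5.26% of windows in the Col-0 control low class. None of these motifs contains another.

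Many listed stress transcription factors were highest in Col-0 control. In the list of zinc finger, ERF and MYB stress factors 21 of 24 tested members were called, against 30.6% of all tested genes. Of these, 14 were positive and 7 negative, and the median of the list was 0.95. The class high in Col-0 control held 13 of them, against 867 of all 6319 called genes. ERF104, a target of stress kinases, stood at 230, 229 and 237 CPM in Col-0 control, 28.9, 25.9 and 29.1 in Col-0 YC4-R4, 55.8, 56.3 and 62.3 in rdd control and 50.7, 43.6 and 45.3 in rdd YC4-R4. It was high in the control libraries of Col-0 only, and its interaction was 2.72 ± 0.08 (edgeR adjusted p = 4.6e-25). ERF105 had 2.83 ± 0.10, and ERF5, ERF6, ZAT6, ZAT10 and MYB77 had 1.59 to 2.7. The negative members were of other classes, ABR1 and RAP2.6 being diagonal and DDF1 (-1.58 ± 0.31), RRTF1 and ERF2 lowest in rdd YC4-R4.

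The CBF genes had some of the largest interactions of this class. CBF1 (AT4G25490, chromosome 4, 13021780 to 13022996) stood at 7.55, 8.86 and 8.88 CPM in Col-0 control and between 0.46 and 1.49 CPM in the other 9 libraries. Its change with YC4-R4 was -3.57 ± 0.24 in Col-0 and 0.00 ± 0.31 in rdd, an interaction of 3.57 ± 0.41 (edgeR adjusted p = 8.2e-09). CBF2 stood at 19.4 ± 1.45 CPM in Col-0 control against group means of 1.99 to 2.13 CPM (interaction 3.21 ± 0.30). These are adjacent similar copies, and counts among them are uncertain. Cold-regulated genes of the same list had other patterns. Of 19 members of the CBF and cold list 4 were positive, all of them CBF genes, and 10 were negative, with a median of -0.39. Not all of the rest are cold-regulated targets. CAMTA3 was among the negative members, and CAMTA1, CAMTA2, ICE1 and HOS1, also on the list, were not called. COR78 stood at 78.3, 78.9 and 76.5 CPM in Col-0 control, 192, 195 and 195 in Col-0 YC4-R4, 145, 131 and 124 in rdd control and 62.0, 52.9 and 57.7 in rdd YC4-R4, a diagonal pattern with an interaction of -2.53 ± 0.07 (edgeR adjusted p = 2.2e-25). ERD10, a dehydrin gene, stood at 170, 200 and 198 CPM in rdd YC4-R4 against 340 to 577 CPM elsewhere (interaction -1.96 ± 0.06).

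AT1G35210 and the TIR-domain gene AT1G72920 were the other leaders of Col-0 control high. AT1G35210, annotated as an uncharacterized protein, stood at 18.2, 19.5 and 20.4 CPM there and at 0.511, 1 and 0.695 in Col-0 YC4-R4. Under the rdd label it stood at 2.12 to 3.51 CPM, an interaction of 4.69 ± 0.28 (edgeR adjusted p = 8.5e-16). AT1G72920 stood at 39.4, 41.1 and 38.4 CPM in Col-0 control and at 3.28 to 7.32 CPM elsewhere (interaction 3.95 ± 0.18). Its neighbours AT1G72910 and AT1G72900, also of the TIR family, had 3.22 and 1.74 in the same class. They formed 1 of 17 runs of 3 or more adjacent tested genes that shared a class, where adjacent similar copies may share reads.

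Immune regulators had large interactions of both signs. Among 25 tested WRKY genes of defence, 7 were positive and 4 negative, with a median of 0.1. The class high in Col-0 control held 5 of the 11, against 867 of all 6319 called genes. WRKY70, a node between salicylic acid and jasmonate signalling, stood at 216, 221 and 218 CPM in Col-0 control and at 33.9 to 53.8 CPM in the other 9 libraries, an interaction of 2.52 ± 0.09 (edgeR adjusted p = 9.2e-23). WRKY33 and WRKY46 had 2.46 ± 0.11 and 2.46 ± 0.22 in the same class. WRKY18 went the other way. It stood at 74.8, 73.4 and 75.6 CPM in Col-0 control, 152, 145 and 150 in Col-0 YC4-R4, 195, 188 and 175 in rdd control and 41.9, 44.9 and 49.7 in rdd YC4-R4, with an interaction of -3.02 ± 0.07 (edgeR adjusted p = 5.4e-28).

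Pattern immunity genes also had both signs, 9 of 27 tested members positive and 7 negative around a median of -0.068. Of the called genes, 7 were highest in Col-0 control and 4 were diagonal, high in Col-0 YC4-R4 and rdd control. These classes held 867 and 795 of all 6319 called genes. MYB51, a regulator of indole glucosinolates, stood at 53.6, 56.5 and 56.9 CPM in Col-0 control against 12.4 to 21.8 CPM elsewhere (interaction 1.45 ± 0.11), and MPK3 and RBOHD, a kinase and an oxidase of early signalling, were of its class. The receptor gene FLS2, which detects flagellin, stood at 27.7, 22 and 24.1 CPM in Col-0 control, 54.2, 57.4 and 54.4 in Col-0 YC4-R4, 78.5, 79.2 and 82.7 in rdd control and 38.0, 41.9 and 39.2 in rdd YC4-R4. Its interaction was -2.18 ± 0.08 (edgeR adjusted p = 2.7e-21), and that of the receptor gene EFR, in the same diagonal class, was -1.88 ± 0.17. Of 24 salicylic acid genes 7 were positive and 3 negative, with a median of 0.12. The calmodulin-binding regulators CBP60G (45.5, 46.5 and 48.0 CPM in Col-0 control against 10.1 to 15.3 elsewhere) and SARD1 had 1.93 ± 0.11 and 1.92 ± 0.15.

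Among ethylene genes 2 of 20 tested members were positive and 9 negative, with a median of -0.14. ACS6, a rate-limiting synthesis enzyme controlled by stress kinases, stood at 160, 166 and 164 CPM in Col-0 control and at 21.4 to 30.1 CPM in the other 9 libraries (interaction 2.75 ± 0.11, edgeR adjusted p = 2.5e-20). EBF2, an F-box gene that is itself induced by ethylene, had 92.1, 93.7 and 94.9 CPM in Col-0 control, 147, 147 and 139 in Col-0 YC4-R4, 231, 224 and 228 in rdd control and 147, 149 and 150 in rdd YC4-R4. The YC4-R4 change was thus upward in Col-0 and downward in rdd, with an interaction of -1.24 ± 0.05 (edgeR adjusted p = 5.8e-20). ACS8, another synthesis gene, was highest in rdd control (-2.22 ± 0.25).

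Photosystem and antenna genes leaned one way. Of 38 tested nuclear members 29 were positive and 0 negative, against 16.2% positive over all tested genes. The class high in Col-0 control held 27 of the 29, against 867 of all 3339 positive calls. The effects were small, with a median of 0.23 and a range of 0.023 to 0.82 over the 38. PSBO1, of the oxygen-evolving complex, had group means of 4350 ± 52.2 CPM in Col-0 control and 3460 to 3490 CPM in the other groups (interaction 0.31 ± 0.05). LHCB1.4 stood at 4480, 4810 and 4720 CPM in Col-0 control and 2320 to 3290 CPM elsewhere (interaction 0.52 ± 0.06), but the LHCB1 genes are near-identical copies that may share reads. The exception was LHCB4.3, an antenna gene, at 59.5, 49.1 and 51.7 CPM in rdd YC4-R4 against 28.0 to 34.6 CPM elsewhere (interaction 0.82 ± 0.09, edgeR adjusted p = 7.4e-09). Without scaling beyond library totals 24 members were positive and 0 negative.

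**Figure D4:**
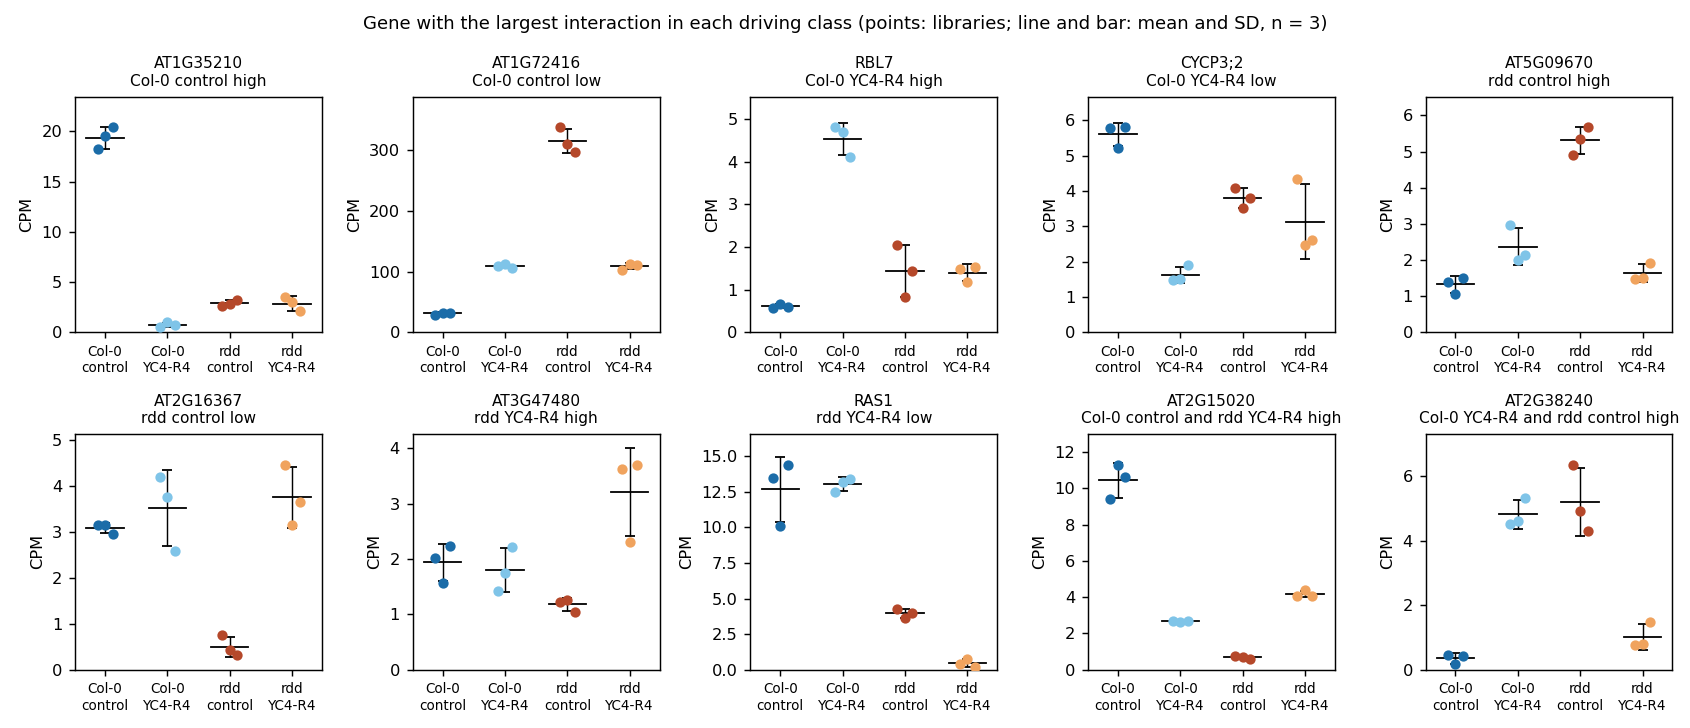
CPM (vertical axes, from 0) of the first gene named by rule in each of the 10 driving classes, with 1 point per library in the 4 groups (horizontal axes) and the mean and SD over n = 3. The rule required that libraries do not overlap, so the separation is fixed by the choice; AT1G35210 stands at 18.2 to 20.4 CPM in Col-0 control, while for AT3G47480 the lowest rdd YC4-R4 library (2.3 CPM) is close to the highest of the other 9 (2.23 CPM).

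The low side of Col-0 control was led by a DnaJ-type chaperone gene, AT1G72416 (chromosome 1, 27258747 to 27260521). It stood at 29.3, 32.0 and 32.4 CPM in Col-0 control, 109, 112 and 106 in Col-0 YC4-R4, 337, 310 and 297 in rdd control and 103, 113 and 111 in rdd YC4-R4. Both YC4-R4 groups met near the same level from opposite sides, which gave an interaction of -3.33 ± 0.07 (edgeR adjusted p = 6.0e-29). PYL6, an abscisic acid receptor, had the same shape, at 2.12 to 2.6, 7.46 to 10.1, 21.9 to 23.3 and 8.45 to 10.6 CPM in the order of the groups, with an interaction of -3.19 ± 0.18. AT4G21870, an HSP20-like gene, had -2.69 ± 0.09 and ran from 15.9 to 21.1, 62.2 to 69.0, 145 to 165 and 85.6 to 89.2 CPM. In all 3 leaders the highest group was rdd control, opposite to Col-0 control.

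Some sugar starvation markers were highest in rdd control. Of 24 tested members of the carbon starvation list 3 were positive and 14 negative, with a median of -0.3, and 8 were called and highest in rdd control, as were 608 of all 20651 tested genes. DIN10, a raffinose synthase family gene induced in the dark, stood at 860, 835 and 834 CPM in Col-0 control, 918, 928 and 904 in Col-0 YC4-R4, 2700, 2550 and 2640 in rdd control and 1430, 1410 and 1390 in rdd YC4-R4. Its interaction was -1.02 ± 0.05 (edgeR adjusted p = 9.9e-20). STP1, a hexose transporter gene, stood at 1010 to 1020 CPM in rdd control against 363 to 553 CPM elsewhere (-1.07 ± 0.05), and DIN6, the asparagine synthetase gene, had -1.0 ± 0.06. The positive members included BT2 (0.70 ± 0.05) and DYL1 (0.50 ± 0.06).

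By size, the leaders of rdd control high were AT5G09670, TMAC2 and PP2-A5. TMAC2, a negative regulator in abscisic acid responses, stood at 60.5, 56.2 and 50.2 CPM in rdd control and at 12.2 to 26.2 CPM in the other 9 libraries (interaction -2.54 ± 0.11, edgeR adjusted p = 3.3e-20). PP2-A5, a phloem lectin-like gene, stood at 56.8 to 59.5 CPM there and at 17.3 to 32.6 CPM elsewhere (-2.25 ± 0.09). AT5G09670, annotated as loricrin-like, stood at 4.91, 5.35 and 5.67 CPM against 1.07 to 2.96 CPM (-2.55 ± 0.30). A run of 3 adjacent genes of this class lay at AT1G52050, AT1G52060 and AT1G52070, with -2.07, -2.01 and -1.87.

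Several flavonoid genes were lowest in rdd control. Of 16 tested members 8 were positive and 0 negative, with a median of 0.56, and 5 were called and lowest in rdd control, as were 808 of all 20651 tested genes. CHS (AT5G13930, chromosome 5, 4488476 to 4490264), the entry enzyme, stood at 33.4, 35.4 and 37.0 CPM in Col-0 control, 35, 35.9 and 37.9 in Col-0 YC4-R4, 18.4, 19.1 and 21.3 in rdd control and 51.6, 45 and 43.1 in rdd YC4-R4. The change with YC4-R4 was 0.04 ± 0.07 in Col-0 and 1.24 ± 0.07 in rdd, an interaction of 1.2 ± 0.10 (edgeR adjusted p = 1.9e-12). F3H, CHI and FLS1, which act downstream in the pathway, had 0.99 to 1.09 in the same class. UGT78D1, a flavonol glycosyltransferase, was diagonal (0.75 ± 0.09), at 36.6 to 40.5, 29.7 to 32.7, 26.0 to 27.2 and 33.9 to 38.2 CPM in the order of the groups.

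The annotation used here gives no function for the leaders of rdd control low. AT2G16367 stood at 0.751, 0.42 and 0.33 CPM in rdd control and at 2.59 to 4.46 CPM in the other 9 libraries (interaction 2.74 ± 0.35, edgeR adjusted p = 1.1e-07). AT2G30766 stood at 1.16, 1.47 and 1.05 CPM against 7.20 to 9.98 CPM (2.7 ± 0.23), and AT2G14247 at 1.43, 0.944 and 0.991 CPM against 1.90 to 4.6 CPM (2.17 ± 0.32). All 3 LSU genes on the sulfur and nitrate list, which respond to sulfur deficiency, were of this class. LSU1 had group means of 3.15 ± 0.18, 2.93 ± 0.75, 1.11 ± 0.40 and 3.40 ± 0.46 CPM, with an interaction of 1.68 ± 0.31, and LSU2 and LSU3 had 0.96 ± 0.18 and 1.07 ± 0.30. Over that list 6 of 23 tested members were positive and 4 negative, with a median of 0.085. LBD37, a nitrogen-responsive repressor, was highest in Col-0 control (150, 151 and 153 CPM against 93.4 to 115, interaction 0.55 ± 0.06), and APR3, a sulfate assimilation gene, was diagonal (0.42 ± 0.06).

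Few genes were set apart by Col-0 YC4-R4 or by a rise in rdd YC4-R4. In the first, RBL7, a rhomboid-like gene, stood at 4.8, 4.69 and 4.11 CPM against 0.569 to 2.05 CPM elsewhere (interaction -2.87 ± 0.39, edgeR adjusted p = 3.0e-07). AT1G51820, a leucine-rich repeat kinase, stood at 5.62, 5.25 and 5.18 CPM against 1.06 to 2.57 CPM (-2.42 ± 0.28). FAMT, a farnesoic acid methyltransferase gene, stood at 26.6, 27.3 and 26.9 CPM against 9.23 to 14.7 CPM (-1.78 ± 0.13). The change with YC4-R4 was 2.87, 1.37 and 1.31 in Col-0 and 0.0052, -1.05 and -0.47 in rdd, in that order.

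Lowest in Col-0 YC4-R4 were the cyclin gene CYCP3;2, the kinase gene AGC2-1, which acts in oxidative stress signalling, and AT5G10150. CYCP3;2 stood at 1.48, 1.5 and 1.90 CPM there and 2.46 to 5.80 CPM elsewhere (interaction 1.49 ± 0.28, edgeR adjusted p = 4.8e-05). AGC2-1 stood at 1.23, 1.25 and 1.71 CPM against 2.39 to 4.21 CPM (1.07 ± 0.31), and AT5G10150 at 13.6, 13.9 and 13.6 CPM against 19.9 to 26.6 CPM (1.03 ± 0.11). FER1, the main leaf ferritin gene, was also lowest in Col-0 YC4-R4 (82.5, 88.0 and 85.7 CPM against 133 to 146 CPM, interaction 0.64 ± 0.06), as was the auxin repressor gene IAA4 (0.33 ± 0.07).

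On the high side of rdd YC4-R4, the EF-hand gene AT3G47480 stood at 3.63, 2.3 and 3.70 CPM against 1.05 to 2.23 CPM elsewhere (interaction 1.57 ± 0.35, edgeR adjusted p = 5.4e-04). The lowest of its 3 libraries lay close to the highest of the other 9. AT2G36970, a UDP-glycosyltransferase gene, stood at 9.58, 8.92 and 11.6 CPM against 3.28 to 4.81 CPM (1.48 ± 0.22). PCR1, a small membrane protein gene of cadmium resistance, stood at 10.1, 9.24 and 9.81 CPM against 3.37 to 5.89 CPM (1.44 ± 0.19). EXPA1, an expansin gene, reached 281 ± 17.0 CPM there against group means of 87.9 to 132 CPM (0.69 ± 0.06).

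The diagonal class that was high in Col-0 control and rdd YC4-R4 was led by AT2G15020, annotated as an uncharacterized protein. It stood at 9.41, 11.3 and 10.6 CPM in Col-0 control, 2.71, 2.62 and 2.66 in Col-0 YC4-R4, 0.751, 0.682 and 0.606 in rdd control and 4.05, 4.38 and 4.09 in rdd YC4-R4. The interaction was 4.58 ± 0.25 (edgeR adjusted p = 7.5e-17). AT1G60590, a pectin lyase-like gene, had 2.58 ± 0.13, at 25.7 to 29.3, 11.1 to 11.9, 5.93 to 6.41 and 14.2 to 15.8 CPM. RDUF1, a ring-type ubiquitin ligase gene, had 2.22 ± 0.10, at group means of 80.0 ± 1.55, 21.7 ± 1.75, 33.6 ± 1.8 and 42.6 ± 6.62 CPM. In each the change with YC4-R4 was downward in Col-0 and upward in rdd.

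Morning clock genes had mostly positive interactions. Of 9 tested members 8 were positive and 0 negative, with a median of 0.7. LHY, a dawn-phased core clock factor, stood at 19.6, 20.4 and 19.7 CPM in Col-0 control, 9.60, 8.75 and 9.61 in Col-0 YC4-R4, 9.83, 11.6 and 10.7 in rdd control and 14.9, 13.1 and 13.9 in rdd YC4-R4 (interaction 1.47 ± 0.13, edgeR adjusted p = 1.3e-11). RVE4, a relative of LHY, was also diagonal (0.70 ± 0.07), CCA1 was highest in Col-0 control (0.80 ± 0.11), and PRR9, counted at 0.503 to 3.54 CPM as group means, had 2.59 ± 0.47. Evening genes were less uniform, 2 of 11 positive and 4 negative with a median of -0.12. PRR5 was highest in rdd control (70.7, 71.9 and 72.1 CPM against 41.8 to 59.0, interaction -0.69 ± 0.07) and CHE lowest in rdd YC4-R4 (62.4 to 64.4 CPM against 100 to 115, -0.52 ± 0.06). The hour of harvest is not given in the sources used here.

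**Figure D5:**
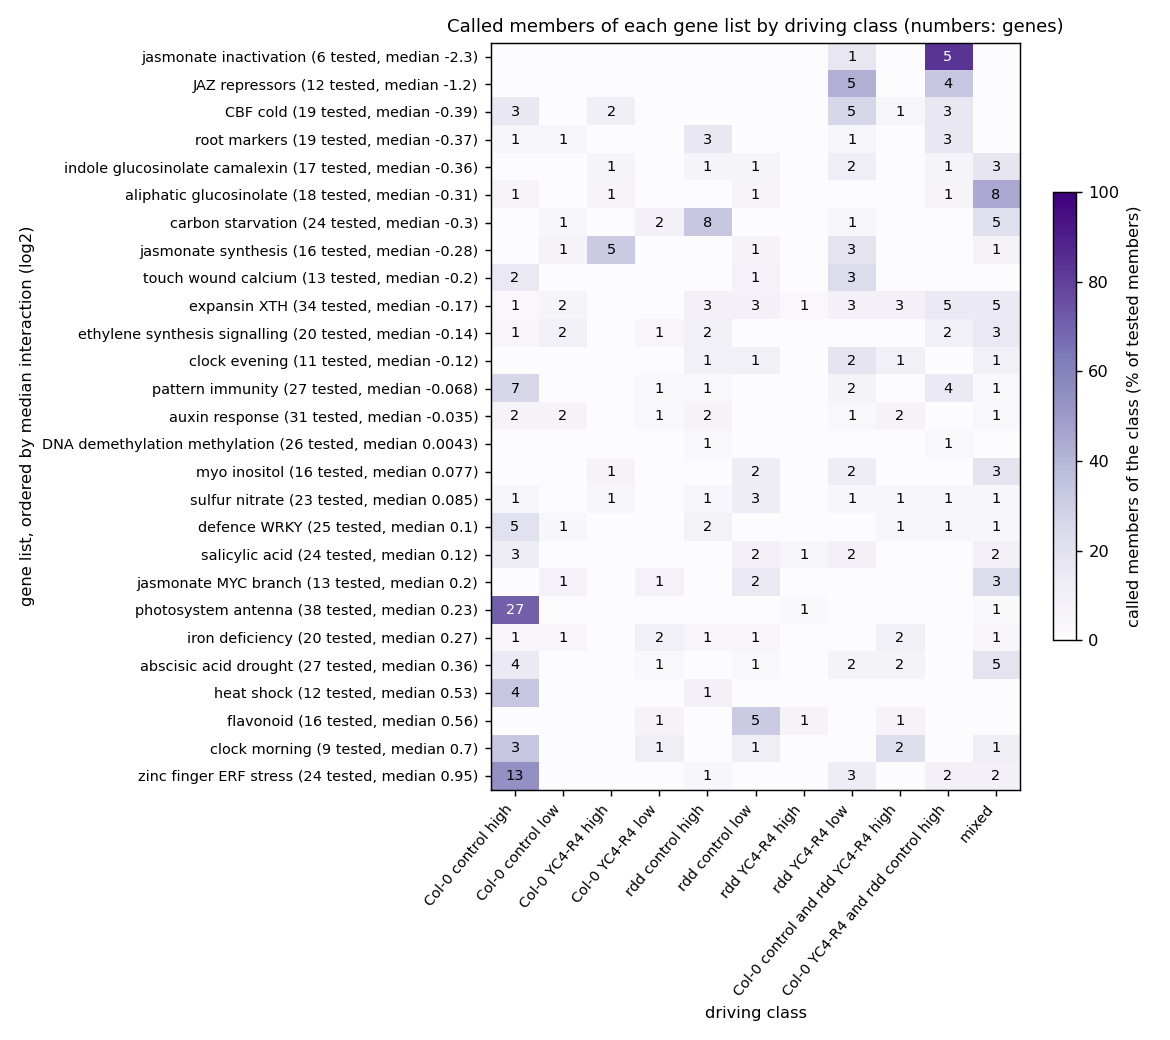
Called members of 27 gene lists with 5 or more tested members (rows, ordered by median log2 interaction) in each driving class (columns), with the number of genes printed and the shade giving the percentage of tested members. Photosystem genes (27 of 38) and stress factors (13 of 24) gather in Col-0 control high, carbon starvation genes (8 of 24) in rdd control high, flavonoid genes (5 of 16) in rdd control low, and jasmonate inactivation genes (5 of 6) in the diagonal class high in Col-0 YC4-R4 and rdd control. In that order these classes held 867, 608, 808 and 795 called genes of all 20651 tested. Lists and members were chosen with earlier results of these data known, so the counts are a description.

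Genes of DNA demethylation carried small interactions or none. In the list of DNA demethylation and methylation genes 0 of 26 tested members were positive and 2 negative (7.69% called, against 30.6% of all tested genes), with a median of 0.0043. ROS1 stood at 86.1, 81.5 and 78.3 CPM in Col-0 control, 68.2, 69.1 and 71.3 in Col-0 YC4-R4, 81.3, 77.3 and 81.1 in rdd control and 72.7, 76.1 and 74.7 in rdd YC4-R4, with an interaction of 0.14 ± 0.07 that did not pass (edgeR adjusted p = 0.10). The methyltransferase gene CMT3 had -0.39 ± 0.08 (edgeR adjusted p = 3.5e-04). DME had -0.20 ± 0.07 (edgeR adjusted p = 0.03), a call that was lost under 9 alternatives, with adjusted p from 0.0503 to 0.109.

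Of 16 tested myo-inositol genes 3 were positive and 5 negative, with a median of 0.077. MIPS1, the main synthase gene of leaves, stood at 180, 191 and 185 CPM in Col-0 control, 153, 156 and 155 in Col-0 YC4-R4, 104, 104 and 110 in rdd control and 103, 107 and 107 in rdd YC4-R4. The change with YC4-R4 was -0.26 ± 0.04 in Col-0 and -0.01 ± 0.04 in rdd, an interaction of 0.25 ± 0.06 (edgeR adjusted p = 4.5e-04). MIPS3 had -0.29 ± 0.08 (edgeR adjusted p = 0.0069), and MIPS2 had 0.05 ± 0.11 and was not called (edgeR adjusted p = 0.78). MIOX2, an oxygenase that breaks myo-inositol down, had the largest interaction of the list. It stood at 11.5, 13.7 and 14 CPM in Col-0 control, 22.6 to 25 in Col-0 YC4-R4, 87.3, 89.3 and 82.1 in rdd control and 32.5, 34.1 and 35.3 in rdd YC4-R4, with an interaction of -2.21 ± 0.10 (edgeR adjusted p = 5.8e-20).

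The glucosinolate and camalexin lists leaned negative. They leave out MYB51, the regulator of indole glucosinolates, which was listed under pattern immunity and was positive (1.45 ± 0.11). CYP81F2, of the pattern immunity list, was also positive (0.89 ± 0.15). Of 18 aliphatic glucosinolate genes 3 were positive and 9 negative, with a median of -0.31, and of 17 indole glucosinolate and camalexin genes 1 was positive and 8 negative, with a median of -0.36. CYP79B2, which makes the indole precursor, stood at 48.0, 51.4 and 48.5 CPM in rdd YC4-R4 against 93.9 to 144 CPM elsewhere (interaction -1.19 ± 0.07, edgeR adjusted p = 6.7e-17). CYP83B1, the next enzyme, had -0.79 ± 0.05. Among aliphatic genes BCAT4, of side chain elongation, had -0.53 ± 0.05 and the sulfotransferase gene SOT17 -0.58 ± 0.07, while the regulators MYB28 and MYB29 were positive at 0.45 ± 0.09 and 0.46 ± 0.13.

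Growth and nutrient lists went both ways. Of 34 expansin and XTH genes 11 were positive and 15 negative, with a median of -0.17. EXPA8 stood at 45.6, 55.4 and 52.2 CPM in Col-0 control and 6.09 to 12.6 CPM in the other 9 libraries, an interaction of 3.54 ± 0.14 (edgeR adjusted p = 5.0e-21). The auxin response list was near the background of 30.6% called, with 5 of 31 positive and 6 negative and a median of -0.035, among them IAA14 (0.81 ± 0.13), highest in Col-0 control. Iron genes had 7 of 20 positive and 2 negative, with a median of 0.27. FER4 was diagonal (0.48 ± 0.08), and the regulators BHLH38 and BHLH101, at group means of 0.108 to 1.2 CPM, had 3.75 ± 0.74 and 2.77 ± 0.67.

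Reads of genes that overlap another tested gene are uncertain here, since the strand setting of the counting is not given. Of the genes named by rule these are ABR1, APR3, AT2G30766, ERF105, FER1, FER4, FLS2, MBF1C, MIPS2, MIPS3, P5CS1, RBL7, SARD1 and STP1. Among the other genes with values above they include CAMTA3, RRTF1, WRKY33, F3H, BHLH38 and BHLH101.

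In the abscisic acid and drought list 12 of 27 tested members were positive and 3 negative, with a median of 0.36. CYP707A3, which breaks abscisic acid down, stood at 97.4, 107 and 100 CPM in Col-0 control against 15.8 to 32.2 CPM elsewhere (interaction 1.26 ± 0.10), and P5CS1, of proline synthesis, had 0.83 ± 0.06. Of 12 heat shock genes 4 were positive and 1 negative, with a median of 0.53. HSFB2A, a heat shock factor gene, stood at 21.7, 23.7 and 22.6 CPM in Col-0 control against 4.25 to 7.49 CPM elsewhere (2.01 ± 0.17), and MBF1C had 1.13 ± 0.25. Root markers had 1 of 19 positive and 8 negative, with a median of -0.37, including the triterpene genes MRN1 (-1.35 ± 0.24) and THAD1 (-0.63 ± 0.11). Neither floral marker was called, and their median was -0.58.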

How the data were processed

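RNA was extracted from whole plants, and libraries were made with a directional kit, per the labels' protocols. The authors trimmed reads with Trimmomatic 0.36, aligned them with HISAT2 2.1.0 and counted them with HTSeq 0.9.1 on TAIR10, per the submitters' processing notes, and the deposited values are raw read counts per gene. The annotation release and strand setting were not given. Of 33602 genes, 20651 passed filterByExpr and held 99.96% of counts. Library totals ran from 14465710 to 20281801 counts, which limits the precision of low genes. The interaction was tested with edgeR 4.0.16 (R 4.3.3; TMM scaling, quasi-likelihood, 1 mean per group, 8 residual degrees of freedom) with Benjamini-Hochberg adjustment, after the fit was tested on simulated data. Group means for driving classes used a prior count of 2. DESeq2 1.42.0 and limma 3.58.1 gave alternatives.

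Named genes were the 3 largest interactions of each driving class at a mean log2 CPM of at least 1 and without overlap with other groups, the 2 called members with the smallest adjusted p in each list that had any, and the demethylase and myo-inositol synthase genes. Of 628 entries in 29 lists, 591 matched the annotation. Members and lists were chosen with earlier results of these data known. Promoter windows and coordinates are from RefSeq TAIR10.1. The promoter sequence of 1 further class leader is not reported here.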

Additional observations from a re-analysis of the deposited data

Results flagged for a closer look

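The YC4-R4 effect differed between the genotype labels, by the test of the interaction term itself (edgeR, adjusted p under 0.05), in 6319 genes and in each gene named by rule that is listed here with its log2 interaction. Genes high in Col-0 control were AT1G35210 at 4.69, AT1G72920 at 3.95, CBF1 at 3.57, ACS6 at 2.75, WRKY70 at 2.52, CBP60G at 1.93, SARD1 at 1.92 and MYB51 at 1.45. To these add ERF104 at 2.72, ERF105 at 2.83, CYP707A3 at 1.26, LHCB1.4 at 0.52, EXPA8 at 3.54, IAA14 at 0.81, LBD37 at 0.55 and HSFB2A at 2.01. To these add MBF1C at 1.13. Genes low in Col-0 control were AT1G72416 at -3.33, PYL6 at -3.19 and AT4G21870 at -2.69. Genes high in Col-0 YC4-R4 were RBL7 at -2.87, AT1G51820 at -2.42, FAMT at -1.78 and OPR3 at -1.54. Genes low in Col-0 YC4-R4 were CYCP3;2 at 1.49, AGC2-1 at 1.07, AT5G10150 at 1.03, IAA4 at 0.33 and FER1 at 0.64. Genes high in rdd control were AT5G09670 at -2.55, TMAC2 at -2.54, PP2-A5 at -2.25, DME at -0.2, PRR5 at -0.69, STP1 at -1.07, DIN10 at -1.02 and THAD1 at -0.63. Genes low in rdd control were AT2G16367 at 2.74, AT2G30766 at 2.7, AT2G14247 at 2.17, CORI3 at 0.7, CLH1 at 0.72 and CHS at 1.2. Genes high in rdd YC4-R4 were AT3G47480 at 1.57, AT2G36970 at 1.48, PCR1 at 1.44, PR4 at 0.63 and LHCB4.3 at 0.82. Genes low in rdd YC4-R4 were RAS1 at -3.17, JAZ7 at -2.84, JAZ8 at -2.84, LOX3 at -1.86, TCH3 at -1.19, TCH4 at -0.86, ERD10 at -1.96 and CHE at -0.52. To these add CYP79B2 at -1.19, XTH18 at -1.58 and MIPS3 at -0.29. Genes high in both Col-0 control and rdd YC4-R4 were AT2G15020 at 4.58, AT1G60590 at 2.58, RDUF1 at 2.22, LHY at 1.47, RVE4 at 0.7, UGT78D1 at 0.75, FER4 at 0.48 and APR3 at 0.42. Genes high in both Col-0 YC4-R4 and rdd control were AT2G38240 at -6.03, CYP94C1 at -5.81, ABR1 at -5.49, CYP94B1 at -4.52, JAZ6 at -2.14, JAZ9 at -1.48, WRKY18 at -3.02 and FLS2 at -2.18. To these add COR78 at -2.53, CMT3 at -0.39 and MRN1 at -1.35. Genes with no driving group were ORA59 at -1.35, EBF2 at -1.24, P5CS1 at 0.83, MIOX2 at -2.21, MIPS1 at 0.25, BCAT4 at -0.53, SOT17 at -0.58 and CYP83B1 at -0.79.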

How the results depend on the processing

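The total of 6319 called genes was 5099 with DESeq2, 6323 with limma voom quality weights, 6313 and 6292 with RLE and upper-quartile scaling (the latter 2964 positive and 3328 negative), 6426 with no scaling, 6308 with no filter, 6167 with a stricter filter and 6317 without ribosomal and organelle genes. Leaving out each library gave 5649 to 6357 calls and kept 86.8% to 92.1% of the called genes. Same-numbered libraries did not deviate together (correlations from -0.0434 to 0.0223), and a replicate block gave 6197 calls. No scaling and the removal of ribosomal and organelle genes were added after the data were seen.

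No named gene reversed, and DME alone lost its call. Driving classes depended on their limits. With no scaling, Col-0 control was high in 477 and low in 1341 genes, Col-0 YC4-R4 high in 291 and low in 125, and 424 were diagonal with Col-0 control and rdd YC4-R4 high. With a gap over 2 times the range, the high and low counts were 407 and 208 for Col-0 control, 76 and 93 for Col-0 YC4-R4, 264 and 365 for rdd control and 80 and 201 for rdd YC4-R4, with 1255 and 1279 diagonal and 2091 in no class. With 0.5 times the range, Col-0 YC4-R4 had 298 high and 335 low, with 277 and 321 diagonal and 148 in no class. At an absolute interaction of 1 or more, 936 genes remained (417 positive, 519 negative), 179 and 75 for Col-0 control, 30 and 12 for Col-0 YC4-R4, 122 and 79 for rdd control, 10 and 90 for rdd YC4-R4, 99 and 163 diagonal and 77 in no class. These changes follow from the limits set, and for scaling the cause was not tested. Leaving out 1 library moved the class high in rdd YC4-R4 from 212 to between 156 and 308. Depth limits what can be said of genes near 1 CPM.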
